A study of Homo sapiens with 9 samples.

Results

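The 10 noncoding genes described here carry small nucleolar RNAs (snoRNAs) in their introns, and their RNA was measured after 2 drugs that act on splicing: GAS5, SNHG1, SNHG5, SNHG6, SNHG7, SNHG8, SNHG12, SNHG15, SNHG16 and ZFAS1. They were chosen by gene symbol, and each of the 10 matched a single feature among the 46846 of the deposited table. All libraries came from 1 cell line, MDA-MB-231, which was derived from a human breast cancer without hormone receptors or HER2 amplification. There were 3 libraries of cells given pladienolide B (10 nM, 6 h), 3 of cells given indisulam (3.3 µM, 12 h) and 3 of cells given DMSO, the solvent control (labelled 12 h). Pladienolide B binds the SF3b complex, which recognises the branch site of introns, and indisulam recruits the splicing factor RBM39 to a ubiquitin ligase for degradation. Drug and time differed together between pladienolide B and either other group, and their parts cannot be told apart.

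A snoRNA host gene is transcribed as a long precursor, and the snoRNA is trimmed out of an intron after splicing. C/D box snoRNAs guide methylation of ribosomal RNA and H/ACA box snoRNAs guide its pseudouridylation. The spliced exons that remain have short reading frames that end early, and for several hosts, GAS5 and ZFAS1 among them, the exon RNA is known to be degraded by nonsense-mediated decay (NMD) when it is translated. Many hosts start with a run of pyrimidines, the terminal oligopyrimidine (TOP) start also found in ribosomal protein genes.

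The start regions of 4 hosts that moved in different ways are shown first. Each runs from 50 bases before the RefSeq start site to 30 bases from it on (GRCh38.p14, 5′ to 3′ on the gene's strand). Capitals mark the longest pyrimidine run within 15 bases of the start and, further upstream, a TATA-like stretch. SNHG16 (chr17:76557714-76557793, plus strand) and ZFAS1 (chr20:49278592-49278671, plus strand) rose with both drugs, and SNHG12 (chr1:28581844-28581923, minus strand) and SNHG7 (chr9:136728155-136728234, minus strand) fell with pladienolide B.
SNHG16: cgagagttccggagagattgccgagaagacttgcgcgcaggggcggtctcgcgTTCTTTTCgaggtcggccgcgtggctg
ZFAS1: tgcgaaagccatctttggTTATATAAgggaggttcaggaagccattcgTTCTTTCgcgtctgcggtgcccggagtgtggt
SNHG12: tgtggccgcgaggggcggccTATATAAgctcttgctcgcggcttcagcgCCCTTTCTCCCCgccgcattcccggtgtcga
SNHG7: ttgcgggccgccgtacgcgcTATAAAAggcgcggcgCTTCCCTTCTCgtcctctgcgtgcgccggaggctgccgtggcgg

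Starts of 8 hosts, those other than SNHG6 and SNHG15, were matched in the RefSeq table and searched. A run of at least 6 pyrimidines within 15 bases of the start, on the gene's strand, was present in 7 of the 8, against 31.1% of all 35116 promoters in the table. Such a run need not begin the RNA, so the count is not one of TOP starts. That of SNHG7 began 14 bases upstream and, 11 bases long, ended before the start. Those of SNHG16 and SNHG1 began at bases 4 and 5 from the start on. GAS5 was the exception, with a run of 4, and its RefSeq start lay 163 bases outside the deposited feature. The RefSeq starts of SNHG12 and ZFAS1 lay 4704 and 464 bases inside theirs. The letters TATANAA, searched on both strands from 45 to 16 bases upstream, were present in 5 of the 8, against 2.01% of all promoters. TATANAA stood in the starts of SNHG5, SNHG7, SNHG8, SNHG12 and ZFAS1, so it was present in hosts that rose and in both that fell.

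The libraries held 59312100 to 83910831 reads. After the authors' normalisation the totals were 82366487 to 87510746 with pladienolide B, 62895851 to 63690595 with indisulam and 60435009 to 61583500 with DMSO. The mesenchymal markers VIM, CD44, AXL and CAV1 ranged from 47300 to 194000 normalised reads over the 9 libraries, ESR1 and PGR did not exceed 2.04, and CDH1 reached 117. ERBB2, which encodes HER2 and was listed among genes expected to be low in this line, stood at 5100 to 5980. The leukocyte markers CD3E, PTPRC and CD14 did not exceed 93.3. Levels below are read counts divided by a size factor per library, and ± beside a level is the SD of 3 libraries. In bulk RNA, fewer cells with a transcript and less of it per cell cannot be told apart. The labels do not say whether each library had its own culture, and the p-values therefore cover the spread among the libraries alone, which may be technical.

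The members differed in abundance. Per kilobase of GENCODE exon inside the deposited feature, SNHG5 was the most abundant host in DMSO cells at 5747 ± 200.7 normalised reads per kilobase. ZFAS1 (4083 ± 207.9) and SNHG8 (4021 ± 183.8) came next, with overlapping libraries. SNHG6 (2417 ± 115.8), SNHG1 (2027 ± 213.6), GAS5 (1398 ± 96.32) and SNHG7 (1263 ± 200.2) followed, and of these only GAS5 and SNHG7 overlapped. SNHG12 (736.6 ± 103.0), SNHG16 (454.8 ± 14.41) and SNHG15 (327.5 ± 30.94) were the lowest per kilobase in DMSO cells. With pladienolide B, SNHG15 and SNHG16 stood at 1364 and 1334 normalised reads per kilobase, above SNHG7 (572.1) and SNHG12 (253.0), whereas in DMSO cells they were below both. The exon lengths include retained-intron transcripts of the annotation, so these per-kilobase levels depend on which isoforms the cells used.

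With the SF3b inhibitor pladienolide B, 8 of the 10 hosts rose against DMSO and 2 fell, SNHG12 and SNHG7. Over all 16846 features tested, 34.3% were called higher and 35.5% lower at a limma adjusted p under 0.05. All 3 values lay outside those of DMSO in the same 10 hosts, 8 above and 2 below, against 35.5% and 36.3% of the features tested. The largest rise among the hosts was that of SNHG15 and the largest fall that of SNHG12. The median log2 fold change of the 10 hosts was 0.79, beside −0.01 over all features tested. By class, all 6 hosts of C/D box snoRNAs rose, 2 of 3 hosts of H/ACA snoRNAs rose, and SNHG12, which holds both kinds, fell.

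**Figure D1:**
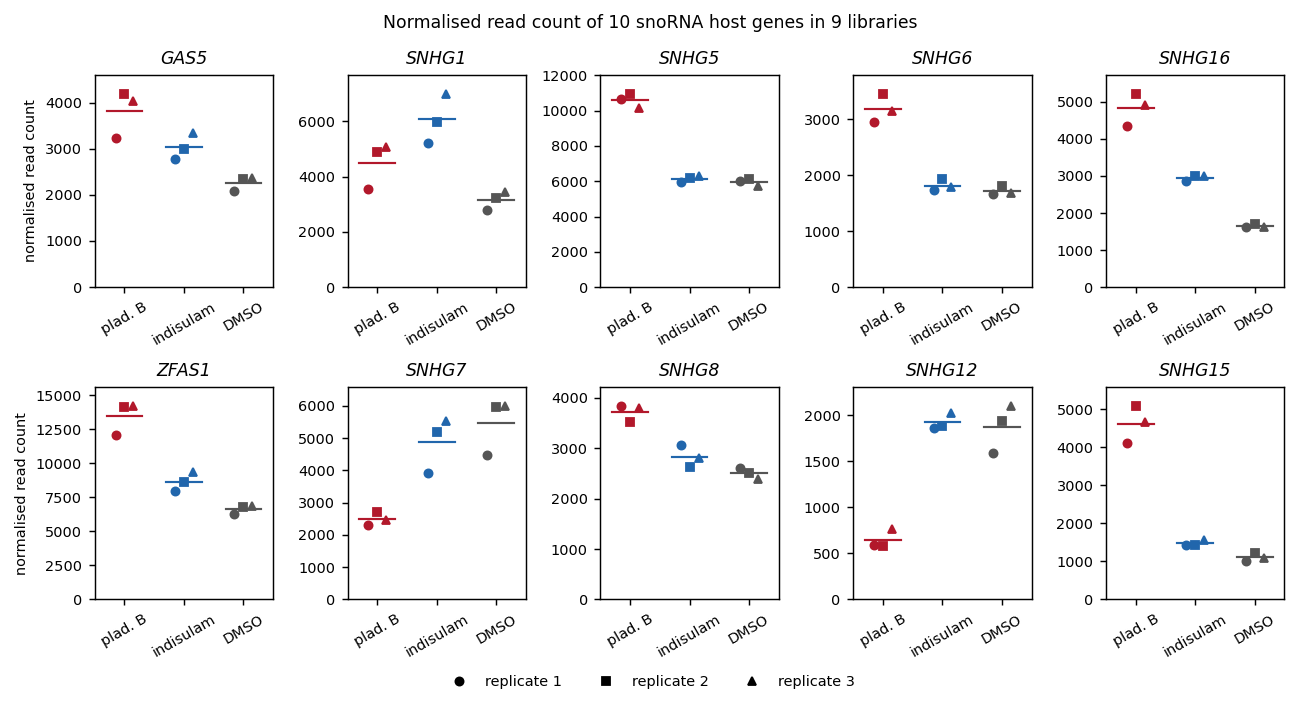
Normalised read count (y axis, from 0) of each host gene in the 9 libraries, with 1 panel per gene, points for the replicates and a line for the group mean (plad. B, pladienolide B). The 3 pladienolide B libraries lie above all DMSO libraries in 8 panels and below them for SNHG7 and SNHG12.

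Among the C/D box hosts, SNHG16, which carries the SNORD1 snoRNAs (GSHG0044984, hg38 chr17:76557764-76565348), stood at 4339, 5214 and 4916 normalised reads with pladienolide B, 2867, 3001 and 2986 with indisulam and 1615, 1705 and 1614 with DMSO. Its 3 groups did not overlap, and every pladienolide B library exceeded every indisulam library. The rise with pladienolide B was 2.92-fold (log2 fold change 1.55 ± 0.07, limma adjusted p = 6.05e-10). Here and below, log2 fold changes are given with their SE. With indisulam the rise was 1.79-fold (0.84 ± 0.07, limma adjusted p = 6.26e-06). ST6GALNAC2, which shares 1613 bases with the SNHG16 feature, averaged 131.56 with pladienolide B, 105.62 with indisulam and 183.92 with DMSO.

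ZFAS1, which carries the SNORD12 snoRNAs and lies head to head with ZNFX1 (GSHG0026906, chr20:49278178-49289260), measured 12104, 14153 and 14191 with pladienolide B, 7974, 8629 and 9327 with indisulam and 6241, 6810 and 6840 with DMSO. All 3 groups were separate. It was 2.03-fold higher with pladienolide B than with DMSO (1.02 ± 0.08, limma adjusted p = 4.22e-08) and 1.30-fold higher with indisulam (0.38 ± 0.08, limma adjusted p = 0.00249). ZNFX1, which encodes a helicase and shares 249 bases with the ZFAS1 feature, moved the other way, at 1570 ± 79.87 with pladienolide B, 2729 ± 70.86 with indisulam and 4040 ± 107.4 with DMSO. The library kit keeps strand, but whether the counting used it is not given in the sources used here.

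GAS5, a growth arrest transcript with several C/D snoRNAs (GSHG0003295, chr1:173863899-173868882), had 3239, 4188 and 4028 normalised reads with pladienolide B, 2786, 2986 and 3348 with indisulam and 2077, 2335 and 2356 with DMSO. Both drug groups lay above DMSO, and they overlapped each other. The log2 fold change against DMSO was 0.75 ± 0.10 with pladienolide B (limma adjusted p = 1.26e-05) and 0.43 ± 0.10 with indisulam (limma adjusted p = 0.00646). The features ZBTB37 and GAS5-AS1, which overlap it, had means of 97.62 and 15.71 over the 9 libraries.

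SNHG1, host of SNORD28 and SNORD30 among others (GSHG0007830, chr11:62851978-62855885), was the exception in order. It had 3537, 4889 and 5055 normalised reads with pladienolide B, 5223, 5977 and 6989 with indisulam and 2789, 3213 and 3443 with DMSO, so indisulam gave the highest libraries. It rose 1.92-fold with indisulam (0.94 ± 0.13, limma adjusted p = 0.000219) and 1.42-fold with pladienolide B (0.50 ± 0.13, limma adjusted p = 0.0041).

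SNHG5 and SNHG6 passed the test with pladienolide B and not with indisulam. SNHG5, host of the SNORD50 snoRNAs (GSHG0038191, chr6:85677009-85678733), measured 10651, 10950 and 10168 with pladienolide B, 5964, 6192 and 6277 with indisulam and 6004, 6152 and 5741 with DMSO. SNHG6, host of SNORD87 (GSHG0042441, chr8:66921690-66925542), measured 2953, 3456 and 3147 with pladienolide B, 1729, 1941 and 1782 with indisulam and 1665, 1815 and 1682 with DMSO. For both, pladienolide B stood apart while indisulam and DMSO overlapped. SNHG5 rose by 0.83 ± 0.06 on the log2 scale with pladienolide B (limma adjusted p = 1.47e-08) and was at 0.04 ± 0.06 with indisulam (adjusted p = 0.612). SNHG6 rose by 0.89 ± 0.08 with pladienolide B (limma adjusted p = 2.18e-07) and was at 0.08 ± 0.08 with indisulam (adjusted p = 0.503). MCMDC2, which shares 359 bases with SNHG6, had a mean of 3.67 normalised reads.

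The H/ACA hosts went in both directions. SNHG15, host of SNORA9 (GSHG0040498, chr7:44983023-44986696), had 4110, 5080 and 4651 normalised reads with pladienolide B, 1442, 1427 and 1554 with indisulam and 1011, 1219 and 1092 with DMSO. No groups overlapped, and pladienolide B stood far above both others. The host was 4.16-fold higher with pladienolide B than with DMSO (2.06 ± 0.09, limma adjusted p = 3.67e-10) and 1.33-fold higher with indisulam (0.42 ± 0.09, limma adjusted p = 0.00464).

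SNHG8, host of SNORA24 (GSHG0032880, chr4:118278757-118279822), had 3838, 3527 and 3804 normalised reads with pladienolide B, 3062, 2622 and 2807 with indisulam and 2617, 2510 and 2388 with DMSO. Its log2 fold change with pladienolide B was 0.57 ± 0.07 (limma adjusted p = 8.3e-06). With indisulam the libraries also lay above those of DMSO, at 0.17 ± 0.07, but the value did not pass (limma adjusted p = 0.0937).

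SNHG7, host of the SNORA17 snoRNAs (GSHG0045308, chr9:136721366-136728184), had 2306, 2697 and 2452 normalised reads with pladienolide B, 3926, 5202 and 5533 with indisulam and 4480, 5977 and 5994 with DMSO. Pladienolide B lay below all other libraries, while indisulam and DMSO overlapped. It fell by 1.13 ± 0.13 on the log2 scale with pladienolide B (limma adjusted p = 3.09e-06) and was at −0.17 ± 0.13 with indisulam (adjusted p = 0.372). DIPK1B shares 3377 bases with the SNHG7 feature and had a mean of 385.8 over the 9 libraries, and TRNAU1AP, a neighbour that shares 8 bases with SNHG12, had a mean of 1879.

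SNHG12, which carries SNORD99 beside H/ACA snoRNAs (GSHG0002222, chr1:28578538-28586577), had 591, 575.2 and 766.1 normalised reads with pladienolide B, 1862, 1884 and 2030 with indisulam and 1588, 1938 and 2101 with DMSO. Here too pladienolide B was apart and low, and indisulam and DMSO overlapped. The log2 fold change with pladienolide B was −1.54 ± 0.12 (limma adjusted p = 6.65e-08) and with indisulam 0.05 ± 0.12 (adjusted p = 0.815).

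**Figure D2:**
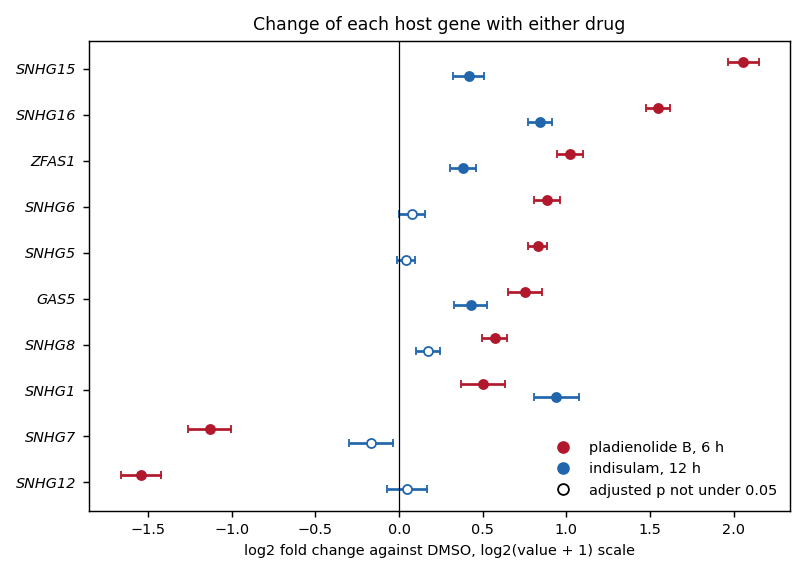
Log2 fold change against DMSO (x axis) of each host gene, in red for pladienolide B and in blue for indisulam, with bars for the SE and open points where the limma adjusted p was not under 0.05. Pladienolide B values run from −1.54 for SNHG12 to 2.06 for SNHG15, and indisulam values from −0.17 for SNHG7 to 0.94 for SNHG1.

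With indisulam, which removes RBM39, 5 of the 10 hosts rose against DMSO (SNHG1, SNHG16, GAS5, SNHG15 and ZFAS1) and none fell in limma. Of all features tested, 14.5% were called higher and 12.4% lower. At an unadjusted p under 0.05, 6 hosts were higher and none was lower, and edgeR and DESeq2 each called 5 higher and none lower. All 3 indisulam values lay above those of DMSO in 6 hosts, SNHG8 being the sixth, and below them in none, against 27.4% and 21.0% of the features tested. The median log2 fold change of the hosts was 0.28, beside 0.05 over all features tested. The 2 comparisons against DMSO share the same control libraries.

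Between the drugs, the hosts' level with pladienolide B was higher in 7 and lower in 3, against 34.7% and 35.6% of all features. The values did not overlap in 9 hosts, with pladienolide B above in 6 and below in 3, against 35.6% and 36.2% of the features tested. The overlap was in GAS5. SNHG15 (1.64 ± 0.09, limma adjusted p = 2.97e-09), SNHG6 (0.81 ± 0.08, adjusted p = 5.68e-07) and SNHG5 (0.79 ± 0.06, adjusted p = 2.58e-08) had the largest positive differences. SNHG12 (−1.59 ± 0.12, limma adjusted p = 5.25e-08), SNHG7 (−0.96 ± 0.13, adjusted p = 1.47e-05) and SNHG1 (−0.44 ± 0.13, adjusted p = 0.00917) were lower with pladienolide B. The SNHG1 difference rested in part on single libraries. It was −0.28 without pladienolide B replicate 1 (limma adjusted p = 0.0448), and it lost its call at −0.33 without indisulam replicate 3 (adjusted p = 0.0528, range over the alternatives 7.46e-06 to 0.0528). The GAS5 difference of 0.32 ± 0.10 (limma adjusted p = 0.0102) was lost without indisulam replicate 1 (0.0514) and changed sign with the same total per library (range 0.000197 to 0.413).

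Scaling matters for pladienolide B, since its normalised totals were higher than those of the other groups. Giving every library the same total moved the median of all features against DMSO by −0.47. Under that scaling 6 hosts were higher and 2 lower, and the calls of SNHG1 (0.03, limma adjusted p = 0.863, range over the alternatives 1.9e-06 to 0.863) and SNHG8 (0.10, adjusted p = 0.275, range 7.88e-13 to 0.275) were lost. SNHG15 (1.58) and SNHG16 (1.08) stayed higher and SNHG12 (−2.01) and SNHG7 (−1.60) lower with the same total. The counts for indisulam did not change under TMM scaling, the same total or quantile normalisation.

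**Figure D3:**
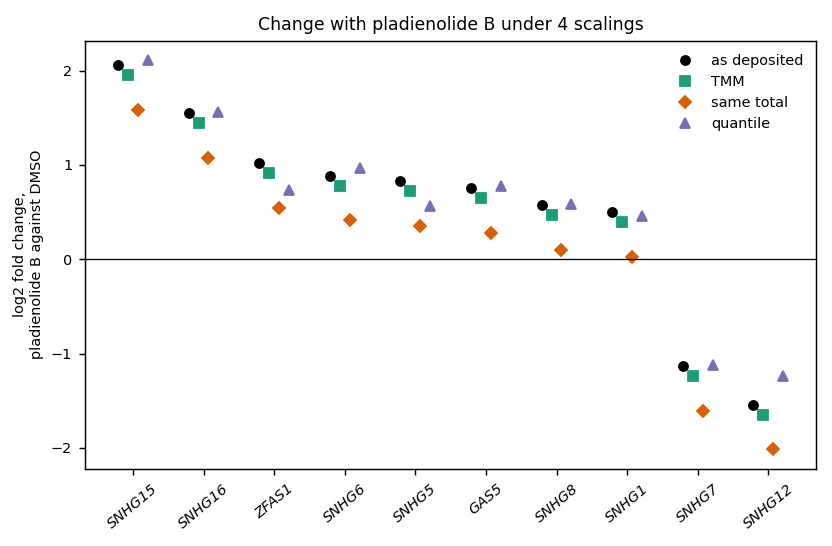
Log2 fold change of each host gene with pladienolide B against DMSO (y axis) under 4 scalings of the libraries, shown by marker. With the same total per library the values drop to between −2.01 and 1.58, and those of SNHG1 (0.03) and SNHG8 (0.10) come close to 0.

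The makeup of the family can be read without any scaling, as each host's share of the summed reads of the 10. SNHG12 made up 1.24 ± 0.195% with pladienolide B, 4.85 ± 0.181% with indisulam and 5.78 ± 0.521% with DMSO. SNHG7 was at 4.79 ± 0.163% with pladienolide B, 12.2 ± 1.36% with indisulam and 16.9 ± 1.74% with DMSO. SNHG15 took 8.88 ± 0.351% with pladienolide B, 3.71 ± 0.177% with indisulam and 3.42 ± 0.175% with DMSO. The share of SNHG1 was highest with indisulam, at 15.2 ± 1.12%, beside 8.62 ± 1.08% with pladienolide B and 9.72 ± 0.564% with DMSO. Together the 10 hosts were 0.0566 to 0.0646% of all normalised reads with pladienolide B, 0.0586 to 0.0672% with indisulam and 0.0493 to 0.0550% with DMSO. In 5 hosts (SNHG1, SNHG6, SNHG7, GAS5 and ZFAS1) the library numbered 1 was the lowest of its group in all 3 groups. The same count was not made over all features, so it is not shown to be particular to the hosts.

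The table also listed snoRNA features inside the hosts: 19 in 8 of them, with none named SNORD or SNORA inside SNHG7 or SNHG15. Of the 19, 17 lay outside the hosts' exons in the GENCODE basic set, and SNORD74 and SNORD12 lay within an annotated exon. Mature snoRNAs have no poly(A) tail, and these libraries were made from polyadenylated RNA, so their reads do not measure mature snoRNA. All 3 pladienolide B values lay above all 3 DMSO values in 12 of the 19 and below them in 3. The same separation held for 24.9% and 24.8% of the 27064 features above 0 in any library. For indisulam it held for 1 above and 1 below, against 18.7% and 14.4%. Reads per feature were few, so values are also given per 1000 reads of the host in the same library, a ratio without any scaling that was chosen after the values were seen. By this ratio, 7 of the 19 lay above DMSO in every pladienolide B library, 3 lay below and 9 overlapped. No share over all features was computed for the ratio.

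The sequences of 6 of them follow, 3 paralogs in ZFAS1, 1 in SNHG16 and 2 whose reads were low with pladienolide B. They are reference sequences of GENCODE release 29 (GRCh38), written 5′ to 3′ as DNA. Capitals mark the C box letters TGATGA in the first 20 bases and the last CTGA, the D box, in the final 20, or ACA in the final 8 bases of the H/ACA snoRNA SNORA24. Both sets of C/D letters, searched on the snoRNA's strand, are present in 64.9% of the 288 GENCODE transcripts named SNORD. SNORD12C is at chr20:49278940-49279028, SNORD12B at chr20:49280319-49280409, SNORD12 at chr20:49280683-49280772 and SNORD1B at chr17:76561109-76561192, all on the plus strand. SNORD50B is at chr6:85677589-85677658 on the minus strand and SNORA24 at chr4:118279190-118279320 on the plus strand.
SNORD12C: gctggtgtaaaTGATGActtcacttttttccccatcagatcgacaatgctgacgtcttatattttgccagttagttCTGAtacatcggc
SNORD12B: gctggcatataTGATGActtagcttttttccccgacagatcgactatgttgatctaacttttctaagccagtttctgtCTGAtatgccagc
SNORD12: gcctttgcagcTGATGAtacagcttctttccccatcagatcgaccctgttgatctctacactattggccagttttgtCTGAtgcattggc
SNORD1B: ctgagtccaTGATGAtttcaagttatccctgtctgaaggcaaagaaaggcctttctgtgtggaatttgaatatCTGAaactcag
SNORD50B: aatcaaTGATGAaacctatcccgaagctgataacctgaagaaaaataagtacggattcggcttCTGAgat
SNORA24: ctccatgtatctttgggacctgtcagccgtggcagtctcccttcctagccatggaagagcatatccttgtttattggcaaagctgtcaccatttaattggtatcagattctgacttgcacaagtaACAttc

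SNORD12C, in ZFAS1, had 46, 40 and 49 reads with pladienolide B, 0, 1 and 1 with indisulam and 1, 1 and 3 with DMSO. A count of 0 allows up to 3 reads, and such limits cover counting error only. Per 1000 ZFAS1 reads it stood at 3.81, 3.64 and 4.38 with pladienolide B and at no more than 0.447 in any other library, so the ratio itself was higher in every pladienolide B library. Its neighbour SNORD12 did not separate per 1000 ZFAS1 reads, with 3.56, 1.18 and 2.23 with pladienolide B, 1.61, 1.29 and 2.35 with indisulam and 1.07, 1.33 and 2.38 with DMSO. SNORD12B had 23, 10 and 9 reads with pladienolide B, 2, 0 and 1 with indisulam and 6, 5 and 7 with DMSO. Per 1000 ZFAS1 reads, SNORD12B overlapped between pladienolide B (1.91, 0.911 and 0.804) and DMSO (0.805, 0.606 and 1.04), and did not exceed 0.23 with indisulam.

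Within GAS5 the snoRNA features also differed from each other. SNORD75 had 22, 14 and 24 reads with pladienolide B, 0, 1 and 1 with indisulam and 1, 3 and 3 with DMSO. SNORD78 had 34, 21 and 31 reads with pladienolide B, 7, 4 and 6 with indisulam and 6, 12 and 4 with DMSO. Both stayed apart per 1000 GAS5 reads, as did SNORD77, with 18.3, 16 and 17 with pladienolide B, 9.20, 11.2 and 13.1 with indisulam and 9.68, 9.54 and 8.22 with DMSO. SNORD44, the deepest of them, overlapped between pladienolide B and DMSO per 1000 GAS5 reads, with 38.4, 23.1 and 35.9 against 23.0, 23.7 and 33.3. By the same ratio SNORD74, SNORD79 and SNORD81 overlapped as well. In SNHG16, SNORD1B had 22, 17 and 15 reads with pladienolide B, 0, 2 and 0 with indisulam and 4, 2 and 3 with DMSO.

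In SNHG5, SNHG6 and SNHG8, hosts that rose with pladienolide B, 1 snoRNA feature each was lower per host read in all 3 pladienolide B libraries. SNORA24 stood at 1.83, 4.75 and 5.0 per 1000 SNHG8 reads with pladienolide B, 10.2, 8.51 and 7.82 with indisulam and 7.68, 11.2 and 11.5 with DMSO. On its own values the fall of SNORA24 against DMSO was not called (−0.87 ± 0.42, limma adjusted p = 0.0788). SNORD87 had 4, 6 and 12 reads with pladienolide B, 28, 23 and 29 with indisulam and 16, 20 and 33 with DMSO, or at most 4.84 per 1000 SNHG6 reads with pladienolide B and at least 8.05 with DMSO. Its normalised values overlapped, reaching 15.2 with pladienolide B and starting at 13.4 with DMSO (−1.21 ± 0.50, limma adjusted p = 0.0461). SNORD50B had 2, 3 and 8 reads with pladienolide B, 9, 15 and 12 with indisulam and 17, 21 and 12 with DMSO. SNORD99, in SNHG12, had 10, 8 and 7 reads with pladienolide B, 26, 21 and 9 with indisulam and 17, 17 and 18 with DMSO. Its log2 fold change with pladienolide B was not called (−0.615 ± 0.454, limma adjusted p = 0.244). Per 1000 SNHG12 reads, whose host had fallen, SNORD99 was higher with pladienolide B (17.0, 17.9 and 11.6) than with DMSO (8.97, 7.24 and 8.73). Per host read, 8 of the 19 features lay below all DMSO libraries in every indisulam library, and none lay above. No share over all features was computed for this. All 8 lay in GAS5, SNHG1, SNHG16 or ZFAS1, hosts whose own level had risen with indisulam. On their own values, only 1 of the 19 lay below DMSO and 17 overlapped. Among the 8, SNORD30 had 10.2, 14.8 and 11.8 per 1000 SNHG1 reads with indisulam against 19.8, 27.2 and 29.6 with DMSO. Its own reads overlapped, at 58, 87 and 79 with indisulam and 66, 106 and 100 with DMSO, while those of SNHG1 had risen.

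**Figure D4:**
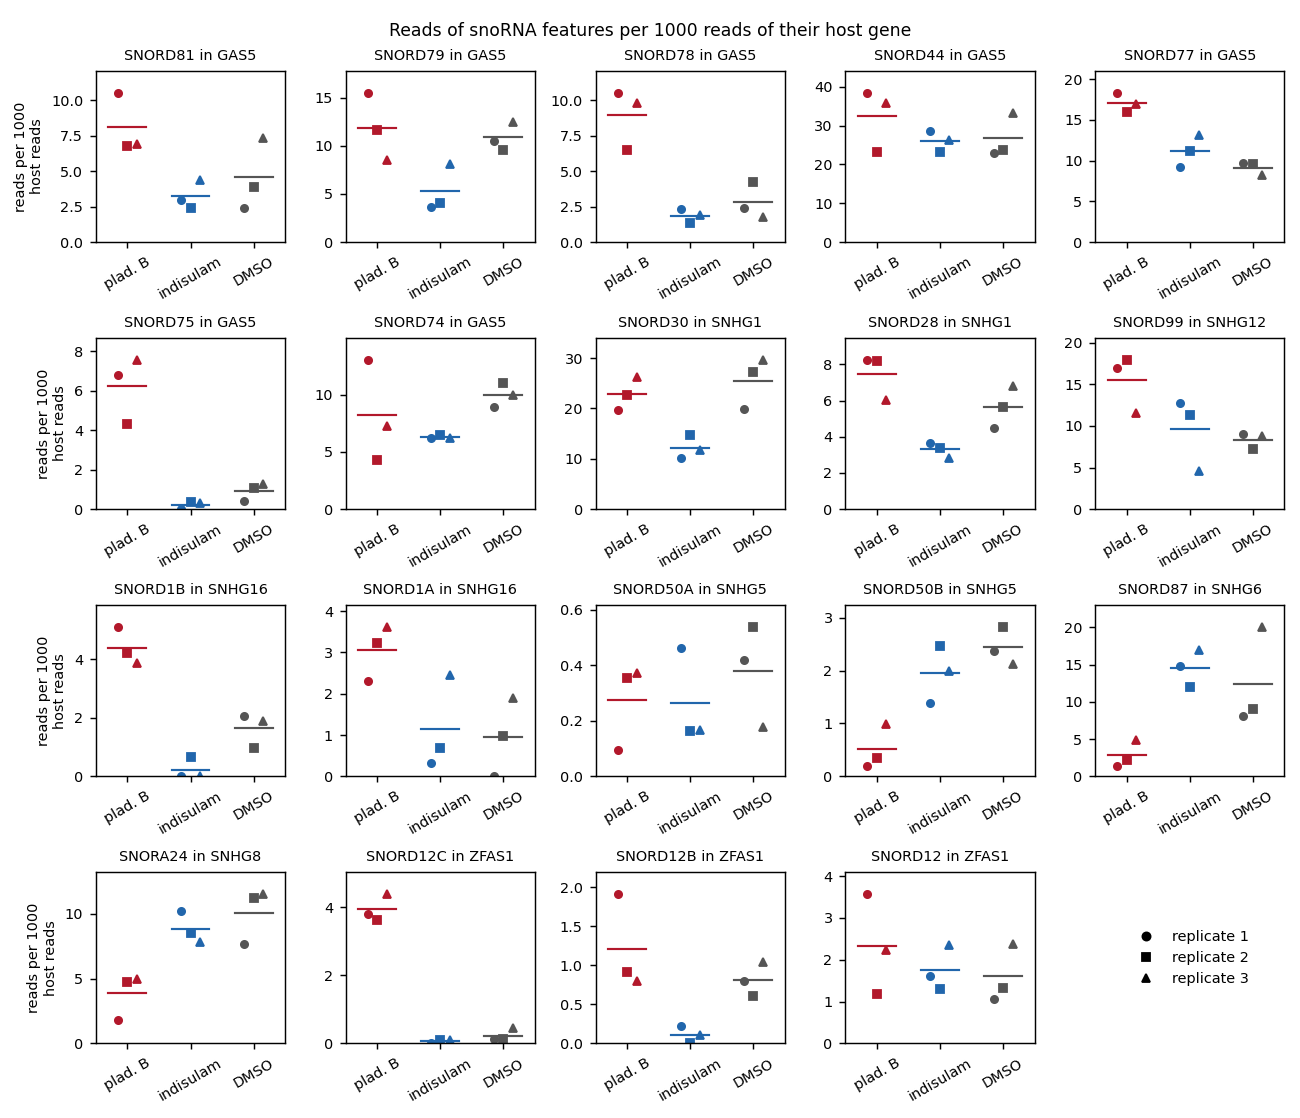
Reads of each of the 19 snoRNA features per 1000 reads of the host gene that holds it (y axis, from 0), by group, with points for replicates and lines for group means (plad. B, pladienolide B). SNORD12C, SNORD75, SNORD78 and SNORD1B are highest in the pladienolide B libraries, and SNORD50B, SNORD87 and SNORA24 are lowest there.

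The hosts were set beside 4 related lists. Over all features tested, 34.3% were called higher and 35.5% lower with pladienolide B against DMSO, and 14.5% and 12.4% with indisulam. Of 23 other noncoding snoRNA hosts, 15 matched a feature and 13 passed the minimum mean. With pladienolide B 8 of these rose and 1 fell (median 0.61), and with indisulam 6 rose and none fell (median 0.26). SNHG17 rose by 2.40 ± 0.11 with pladienolide B (limma adjusted p = 3.85e-10) and by 0.97 ± 0.11 with indisulam (adjusted p = 3.7e-05), and SNHG26 fell by 0.52 ± 0.18 with pladienolide B (adjusted p = 0.0183). SNHG30 rose by 1.00 ± 0.11 with pladienolide B (adjusted p = 2.88e-06) and by 0.75 ± 0.11 with indisulam (adjusted p = 0.000403). Scaled to equal totals, 5 were called higher and 2 lower with pladienolide B (median 0.14, beside −0.48 over all features tested). After quantile normalisation 7 were higher and 0 lower (median 0.46, beside 0.05 over all features tested). The fall of SNHG26, at −0.32 there, lost its call. Between the drugs, 5 were higher (38.5%) and 3 lower (23.1%) with pladienolide B, against 34.7% and 35.6% of all features tested. The share called higher was thus near that of all features. The median was 0.29, beside 0.01 over all features tested. At equal totals 1 was higher and 4 lower (median −0.12), but the median of all features was lower still, at −0.40. The largest differences between the drugs were those of SNHG17 (1.44 ± 0.11, limma adjusted p = 4.67e-08) and, downward, SNHG26 (−0.78 ± 0.18, adjusted p = 0.00135). SNHG21 was at 0.57 ± 0.17 (limma adjusted p = 0.00746) but at 0.15 with equal totals. SNHG19 was at −0.40 ± 0.17 (adjusted p = 0.044) but at −0.09 after quantile normalisation.

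Of 30 protein-coding snoRNA hosts, most of them ribosomal protein genes, 28 matched and were tested. With pladienolide B 23 rose and 1 fell (median 0.83). With indisulam 4 rose (14.3%) and 1 fell (3.57%), so the share called higher was near the 14.5% of all features tested (12.4% lower). The median with indisulam was 0.07, beside 0.05 over all features. TAF1D, a subunit of an RNA polymerase I factor whose transcript carries several snoRNAs, rose by 1.81 ± 0.11 with pladienolide B (limma adjusted p = 5.36e-09) and by 0.68 ± 0.11 with indisulam (adjusted p = 0.000514). WDR43, a ribosome assembly factor, fell by 0.74 ± 0.10 with pladienolide B (adjusted p = 1.09e-05). RPL21, a ribosomal protein gene, rose by 1.23 ± 0.07 with pladienolide B (limma adjusted p = 3.53e-09) and by 0.59 ± 0.07 with indisulam (adjusted p = 6.54e-05), and RPL3, another, fell by 0.21 ± 0.06 with indisulam (adjusted p = 0.0181). The list's median with pladienolide B was 0.36 at equal totals, beside −0.48 over all features tested. After quantile normalisation it was 0.07, beside 0.05 over all features, with 13 higher and 5 lower.

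NMD factors mostly went down with pladienolide B: 4 of 14 rose and 9 fell (median −0.56, beside −0.01 over all features tested). At equal totals 1 rose and 13 fell (median −1.03), but that scaling moved the median of all features as well, to −0.48. SMG9, a regulator of the SMG1 kinase, fell by 2.27 ± 0.09 (limma adjusted p = 1.78e-10), and SMG6, the endonuclease of the pathway, fell by 1.84 ± 0.08 (adjusted p = 3.63e-10). UPF1, the central helicase, was at −0.50 (adjusted p = 1.65e-05) and UPF2, its partner, at −1.75 (adjusted p = 4.31e-07). SMG8, which pairs with SMG9, rose by 0.85 ± 0.09 (adjusted p = 1.73e-06), and MAGOH, of the exon junction complex, was at 0.32 but at −0.15 at equal totals. With indisulam 2 of 14 rose (14.3%) and 1 fell (7.14%), shares no larger than the 14.5% and 12.4% of all features tested. The median was 0.04, beside 0.05 over all features. UPF3B, a partner of UPF2, rose by 0.45 ± 0.14 (limma adjusted p = 0.0302) and SMG8 by 0.31 ± 0.09 (adjusted p = 0.0222). Whether these levels bear on the hosts was not tested.

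Of 15 snoRNP proteins and assembly factors 13 were tested. With pladienolide B 6 rose and 3 fell (median 0.20), and with indisulam 4 rose and 2 fell. The counts with pladienolide B depended on the scaling. At equal totals 3 were higher and 7 lower (median −0.28), but the median of all features tested was lower still, at −0.48. After quantile normalisation 4 were higher and 6 lower (median −0.13, beside 0.05 over all features tested). NHP2, an H/ACA core protein, rose by 0.93 ± 0.06 with pladienolide B (limma adjusted p = 5.62e-09), and SNU13, which binds the C/D motif, by 0.70 ± 0.07 (adjusted p = 3.68e-07). NUFIP1 and ZNHIT6, C/D assembly factors, fell by 1.47 ± 0.10 and 0.83 ± 0.10 with pladienolide B (adjusted p = 1.86e-08 and 3.75e-06). ZNHIT6 rose by 0.56 ± 0.10 with indisulam (adjusted p = 0.000982), and NOP58, a C/D core protein, fell by 0.31 ± 0.11 (adjusted p = 0.0419). ZNHIT3, another assembly factor, rose by 0.44 ± 0.07 with indisulam (limma adjusted p = 0.000833), and RUVBL2, an ATPase of the assembly machinery, fell by 0.23 ± 0.05 (adjusted p = 0.00533).

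**Figure D5:**
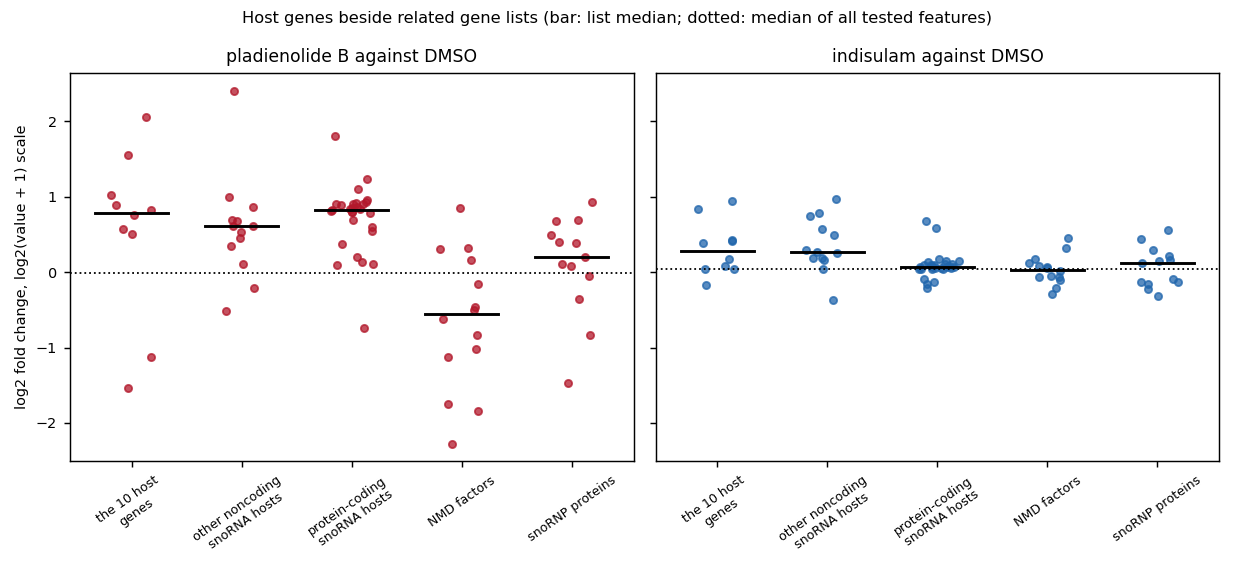
Log2 fold change (y axis) of the 10 host genes and of the tested genes of 4 related lists, against DMSO, with pladienolide B (left) and indisulam (right). Each point is a gene, bars are list medians and the dotted line is the median of all features tested; the hosts' medians are 0.79 and 0.28, and that of the NMD factors is −0.56 with pladienolide B.

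The genes whose profile over the 9 libraries was closest to the mean profile of the 10 hosts were BAG1, B4GALT5, PLEKHA3, ALG3 and MAPKAP1. Their root mean square difference from it was 0.0571 to 0.0672 on the log2 scale, among 11517 named genes with a mean of at least 100. The mean profile lay 0.55 above DMSO with pladienolide B and 0.32 above it with indisulam. The hosts themselves were farther from their own mean, from 0.143 for GAS5 to 1.22 for SNHG12.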

How the data were processed

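RNA libraries of MDA-MB-231 cells, 9 in all, were made with an mRNA kit that keeps strand, per the labels' protocols. Tools listed in the submitters' processing notes are STAR 2.7.5a, SAMtools, Picard, FastQC and DESeq2, with build hg38. The deposited signal is a read count per feature, scaled by the authors with a DESeq2 size factor for each library, per the name of the table and the labels. No source used here states the counter or whether it used strand. Dividing by the smallest step of each library gave whole reads for 100% of values (tolerance 0.01), and these reads served the count tests. A count of 3 reads, the limit that 0 allows, was worth 2.48 to 3.87.

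Features with a mean of at least 10 over the 9 libraries (16846, all 10 hosts among them) were fitted with limma 3.58.1 (R 4.3.3) on log2(value + 1), all libraries in 1 fit. Variances were moderated with a trend on the mean, and two-sided p-values were adjusted by Benjamini-Hochberg over all features, at 0.05. Fold changes are on that scale, which understates changes of low features. The script was tested on simulated data. No libraries of a group agreed within sampling noise (chi-square per gene of at least 8.68). Alternatives were other pseudocounts, filters and scalings, edgeR 4.0.16, DESeq2 1.42.0, a replicate block and leaving out each library.

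The members and lists were chosen with earlier results of these data known. Named are the hosts, overlapping features, up to 2 called genes per list, comparison and direction (mean of at least 100) and the 5 closest profiles. UPF1 was added after its values were seen. Some genes that the rule or the marker lists name are not reported here. Exons and snoRNA sequences come from GENCODE release 29 (GRCh38), and start regions from RefSeq (GRCh38.p14).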

Additional observations from a re-analysis of the deposited data

How the results depend on the processing

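The counts of hosts called with pladienolide B against DMSO (8 higher, 2 lower) and with indisulam against DMSO (5 higher, 0 lower) were unchanged without any 1 library. Between the drugs, 6 to 7 were higher and 2 to 3 lower without 1 library. With the same total per library, 6 were higher and 2 lower for pladienolide B against DMSO, and 5 higher and 3 lower between the drugs; the differences between the drugs changed sign for SNHG8 (−0.021, limma adjusted p = 0.825, range over the alternatives 8.47e-07 to 0.825) and GAS5 (−0.094, adjusted p = 0.413). Of 570 values of single hosts under an alternative, 558 kept their direction and their side of the threshold, and 5 that were not called, of SNHG5 and SNHG12 with indisulam against DMSO, changed sign (−0.069 to −0.001). Same-numbered libraries correlated at 0.00266 to 0.128 in their deviations from the group means, not all over 0.1, so the numbers were not taken as pairs. As a hint from the data and not the design, all 9 of these correlations were above 0, against 3 of 18 between other numbers, and a library correlated best with its own number in 16 of 18 cases. Deviations within a group sum to 0, so the counts of 3 and 16 follow in part from the 9 and are no separate evidence. With the replicate number as a block, 6 hosts were higher with indisulam instead of 5, SNHG8 being added (0.17, limma adjusted p = 0.0248, range 0.0248 to 0.32), and no other call of a host changed. The lowest value of any host was 575.2 normalised reads, and 5 of the 19 snoRNA features had a mean under 10.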
